A study of Mus musculus with 12 samples.

Results

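CC chemokines are small secreted proteins with adjacent cysteines near their start that guide leukocytes along a gradient. The 10 CC chemokine genes described here, Ccl2, Ccl3, Ccl4, Ccl5, Ccl6, Ccl7, Ccl8, Ccl9, Ccl12 and Ccl24, were named as a list and found by gene symbol among 36439 genes counted by RNA sequencing. All 10 were found, and all 10 passed the filter on low counts in both comparisons below. The 12 libraries were made from tumour-associated macrophages (TAMs), which are macrophages that live within a tumour, and formed 4 groups of 3. MRC1+ TAMs were sorted as F4/80+ cells carrying the mannose receptor MRC1, and CD11c+ TAMs as F4/80+ cells carrying the integrin CD11c. F4/80 is a surface protein of mouse macrophages. The miR-511-3p TAMs were F4/80+ cells that overexpressed the microRNA miR-511-3p, and the miR-511-3p-mut TAMs were F4/80+ cells that overexpressed a mutated form of it. Both names carry the prefix SFFV in the labels, the usual abbreviation of the spleen focus-forming virus promoter, which is active in many blood cell types. All 4 groups shared the same background: subcutaneous Lewis lung carcinoma, a mouse lung tumour line that can be transplanted, in the C57BL/6 strain. The sources used here do not give the age or sex of the mice, the number of tumours per library or the day of isolation. The labels number the libraries 1 to 3 without naming separate mice. The p-values set a group difference against the spread of these libraries, and part or all of that spread may be technical.

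Macrophages both release CC chemokines and follow them. Ccl2, Ccl7 and Ccl12 encode ligands of CCR2, the receptor that brings monocytes from blood into tissue, and Ccl8 encodes a related protein that acts in mice mainly through CCR8. Ccl3, Ccl4 and Ccl5 encode chemokines that attract monocytes, macrophages and T cells, and Ccl3 and Ccl4 are induced quickly when macrophages are activated. Ccl6 and Ccl9 encode rodent chemokines that act through CCR1, and Ccl24 encodes an eotaxin that attracts eosinophils through CCR3. In a bulk library, fewer cells that transcribe a gene and less of its RNA per cell cannot be told apart.

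Of the 10 genes, 9 lie on mouse chromosome 11, in the order Ccl2, Ccl7, Ccl12, Ccl8, Ccl5, Ccl9, Ccl6, Ccl3 and Ccl4, and Ccl24 lies on chromosome 5. Ccl12 and Ccl8 are neighbours in that order, and both were higher in MRC1+ than in CD11c+ TAMs (below). RefSeq promoter windows, 250 bases before to 50 bases after the start of the gene on GRCm38.p6, were matched for 5 of the 10 genes: Ccl12, Ccl8, Ccl9, Ccl6 and Ccl3. The windows of Ccl12 (chr11:82101595-82101894, plus strand) and Ccl8 (chr11:82114935-82115234, plus strand) are shown because they are alike in sequence and carry the same TATAAA letters, in capitals, at nearly the same place.
Ccl12: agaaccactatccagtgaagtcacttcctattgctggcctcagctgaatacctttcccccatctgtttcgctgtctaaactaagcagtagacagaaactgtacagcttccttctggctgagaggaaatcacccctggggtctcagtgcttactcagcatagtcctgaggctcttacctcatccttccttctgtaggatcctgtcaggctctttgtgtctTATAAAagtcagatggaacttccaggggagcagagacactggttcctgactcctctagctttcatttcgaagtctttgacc
Ccl8: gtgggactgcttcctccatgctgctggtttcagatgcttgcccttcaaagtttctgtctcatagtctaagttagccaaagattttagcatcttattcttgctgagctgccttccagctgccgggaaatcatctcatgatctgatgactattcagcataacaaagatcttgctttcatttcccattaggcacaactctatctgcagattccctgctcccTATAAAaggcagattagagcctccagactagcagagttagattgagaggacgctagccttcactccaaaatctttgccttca
The letters are the core of a TATA box and begin at position -31 from the start in Ccl12 and -32 in Ccl8. A global alignment paired 275 bases of these windows, and 65.45% of the paired bases were identical. The windows of Ccl9 and Ccl6, also neighbours, paired 228 bases with 64.04% identity. TATAAA, read on both strands, was present in 13.6% of 32851 promoter windows of this length. Besides Ccl12 and Ccl8, the window of Ccl9 held it, on the gene's strand at position -92 and on the other strand at -94 and -224, while those of Ccl6 and Ccl3 held no such letters. TTCNNNGAA, a form of the site bound by STAT factors, reads the same on both strands and was present in 8.30% of all windows and in none of the 5.

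The overexpressed microRNA is shown next because the seed, bases 2 to 8, given in capitals, is the part by which a microRNA mainly recognises its target transcripts. It lies at chr2:14261051-14261072 on the plus strand of GRCm38.p6.
mmu-miR-511-3p: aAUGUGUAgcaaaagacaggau
Among the 10 chemokine genes, Ccl9 alone had a match to this seed in its annotated 3′ untranslated region. The match, the 7 bases that pair with the seed followed by an A, stands in capitals and begins at base 234 of the 2468 bases of that region.
Ccl9 site: ctgacctcaatgacTACACATAatatttg
The sources used here do not give the sequence of the mutated form. A match is a description of letters and does not show that the site is bound. The annotated 3′ untranslated regions of the other chemokine genes were shorter, from 168 bases in Ccl8 to 946 bases in Ccl6. A longer region holds more places for a match, and the share of all genes with such a match was not computed.

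Libraries held between 10824918 and 27890433 reads that fell in genes. Mrc1, the gene of the sorting marker, had 3779, 3384 and 3357 CPM in MRC1+ TAMs against 1364, 1707 and 1447 CPM in CD11c+ TAMs. Itgax, which encodes CD11c, had 113, 97.1 and 73.1 CPM in MRC1+ TAMs against 889, 983 and 893 CPM in CD11c+ TAMs, so both markers followed the sort. CPM are the reads of a gene as a part of its library's total, with edgeR's TMM scaling over the 12 libraries. The 8 macrophage markers summed to 8309.5 to 14541 CPM per library, and none was at 0 in a group. Markers of other cells were lower: the 12 T and NK cell markers summed to 3.01 to 29.0 CPM and the 5 B cell markers to 5.79 to 18.6 CPM. Among neutrophil, eosinophil and mast cell, endothelial, and epithelial and carcinoma markers the highest sum was 205 CPM. The 9 fibroblast markers summed to 807, 584 and 764 CPM in MRC1+ TAMs against 1131, 255 and 304 CPM in CD11c+ TAMs. All 9 had log2 fold changes above 0 between these groups, with a median of 0.35, and none passed edgeR's test. In the overexpression groups the same sum was 91.2, 91.4 and 279 CPM in miR-511-3p TAMs against 186, 172 and 681 CPM in miR-511-3p-mut TAMs. The 11 dendritic cell markers summed to 49.6 to 52.1 CPM in MRC1+ TAMs against 343 to 579 CPM in CD11c+ TAMs. Their part in the results below was not tested.

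Together the 10 genes took 0.463% ± 0.0328 of the reads counted to genes in MRC1+ TAMs and 0.259% ± 0.0471 in CD11c+ TAMs (SD, n = 3 each). The share was 0.354% ± 0.0635 in miR-511-3p TAMs and 0.310% ± 0.0224 in miR-511-3p-mut TAMs (SD, n = 3 each). To compare genes with each other, CPM were divided by the length of the exons in kilobases, giving RPKM. On this scale Ccl8 and Ccl7 led in MRC1+ TAMs, at 820.1 ± 29.4 and 811 ± 81.9 RPKM (SD, n = 3), and their libraries overlapped. Ccl2 followed at 660.0 ± 80.0 RPKM, below every library of Ccl7. Ccl6 (434 ± 57.7 RPKM) and Ccl9 (381 ± 32.9) overlapped each other, as did Ccl12 (267 ± 17.1) and Ccl4 (187 ± 75.3). Ccl3 stood at 91.4 ± 28.9 RPKM, Ccl24 at 15.1 ± 1.39 and Ccl5 at 5.95 ± 5.08, each apart from its neighbours in the order.

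The order was flatter in CD11c+ TAMs. Ccl2 (334 ± 82.4 RPKM), Ccl6 (315 ± 25.7), Ccl9 (304 ± 53.6), Ccl7 (290.0 ± 74.3), Ccl4 (253 ± 244), Ccl8 (187 ± 90.3), Ccl12 (154 ± 45.9) and Ccl3 (92.8 ± 72.5) formed a chain in which each gene's libraries overlapped those of the next (SD, n = 3). Ccl8, in the first place in MRC1+ TAMs, was sixth here. Ccl5 (14.96 ± 14.6 RPKM) and Ccl24 (7.23 ± 1.03) lay below all of them and overlapped each other. In both overexpression groups the order began with Ccl7, Ccl2, Ccl8 and Ccl6, at 849 ± 163, 659.7 ± 107, 557 ± 155 and 433 ± 146 RPKM in miR-511-3p TAMs. The same genes had 676 ± 53.2, 521 ± 35.4, 473 ± 45.3 and 369 ± 103 RPKM in miR-511-3p-mut TAMs, where Ccl7 alone of these 4 stood apart from the next. Ccl4, Ccl9, Ccl12 and Ccl3 came between, from 303 ± 32.0 to 183 ± 27.5 RPKM in miR-511-3p TAMs and, with Ccl9 before Ccl4, from 286 ± 78.6 to 142 ± 17.8 RPKM in miR-511-3p-mut TAMs. Ccl5 and Ccl24 came last in both, at 10.9 ± 0.912 and 6.70 ± 4.40 RPKM in miR-511-3p TAMs and at 10.9 ± 4.05 and 5.09 ± 1.54 RPKM in miR-511-3p-mut TAMs.

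The chemokine pool of MRC1+ TAMs was made up mostly of the CCR2 ligand genes and Ccl8. Ccl2, Ccl7, Ccl8 and Ccl12 made up 69.1%, 71.9% and 68.2% of the summed RPKM of the 10 genes in the MRC1+ libraries, against 51.6%, 56.5% and 43.3% in the CD11c+ libraries. Ccl6 and Ccl9 made up 24.0%, 21.7% and 20.99% in MRC1+ libraries and 38.2%, 32.2% and 27.6% in CD11c+ libraries. The groups did not overlap in either share, and the shares of 1 library add to 100%, so a higher share of one set lowers the others. Ccl3, Ccl4 and Ccl5 made up 6.49%, 6.05% and 10.4% in MRC1+ libraries and 9.79%, 10.9% and 28.8% in CD11c+ libraries, where the third CD11c+ library was far above the rest. In the overexpression libraries Ccl2, Ccl7, Ccl8 and Ccl12 made up 65.7%, 65.1% and 64.9% under miR-511-3p and 65.5%, 58.6% and 67.7% under its mutated form, and the groups overlapped.

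**Figure D1:**
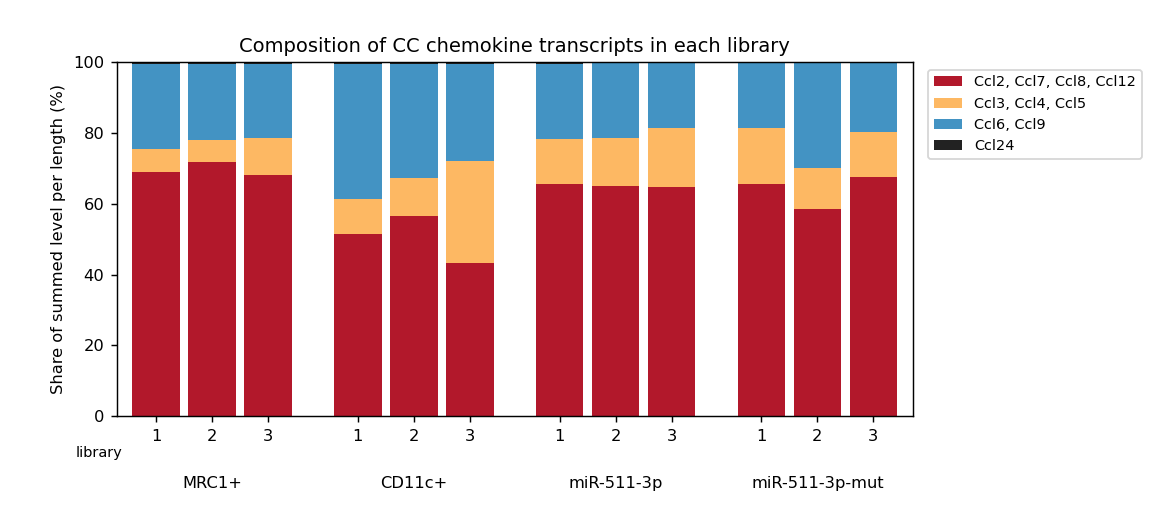
Share of the summed level per length (RPKM, in percent, vertical axis) taken by 4 sets of CC chemokine genes in each of the 12 libraries, each bar being 1 library. The red part (Ccl2, Ccl7, Ccl8 and Ccl12) is 68.2% to 71.9% in MRC1+ TAMs, against 43.3% to 56.5% in CD11c+ TAMs, and the third CD11c+ library has the largest part of Ccl3, Ccl4 and Ccl5, at 28.8%.

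The comparison of the sorted groups asks which chemokine transcripts separate TAMs that carry MRC1 from those that carry CD11c. Of the 10 genes, 6 were higher in MRC1+ TAMs: the CCR2 ligand genes Ccl2, Ccl7 and Ccl12, their relative Ccl8, the CCR1 ligand gene Ccl6 and the eotaxin gene Ccl24. None was lower, and Ccl3, Ccl4, Ccl5 and Ccl9 did not pass the test. The fold changes ran from 1.38-fold for Ccl6 to 4.39-fold for Ccl8. The test was edgeR's quasi-likelihood test on the 6 libraries, with p adjusted over 15622 genes by Benjamini-Hochberg and a threshold of 0.05. Over all genes tested, 6.91% passed as higher and 9.71% as lower in MRC1+ TAMs. The median log2 fold change was 0.63 over the 10 chemokine genes and 0.01 over all genes. For these 6 genes all MRC1+ libraries also lay above all CD11c+ libraries. Groups without overlap, in either direction, were found for 38.3% of all genes tested.

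**Figure D2:**
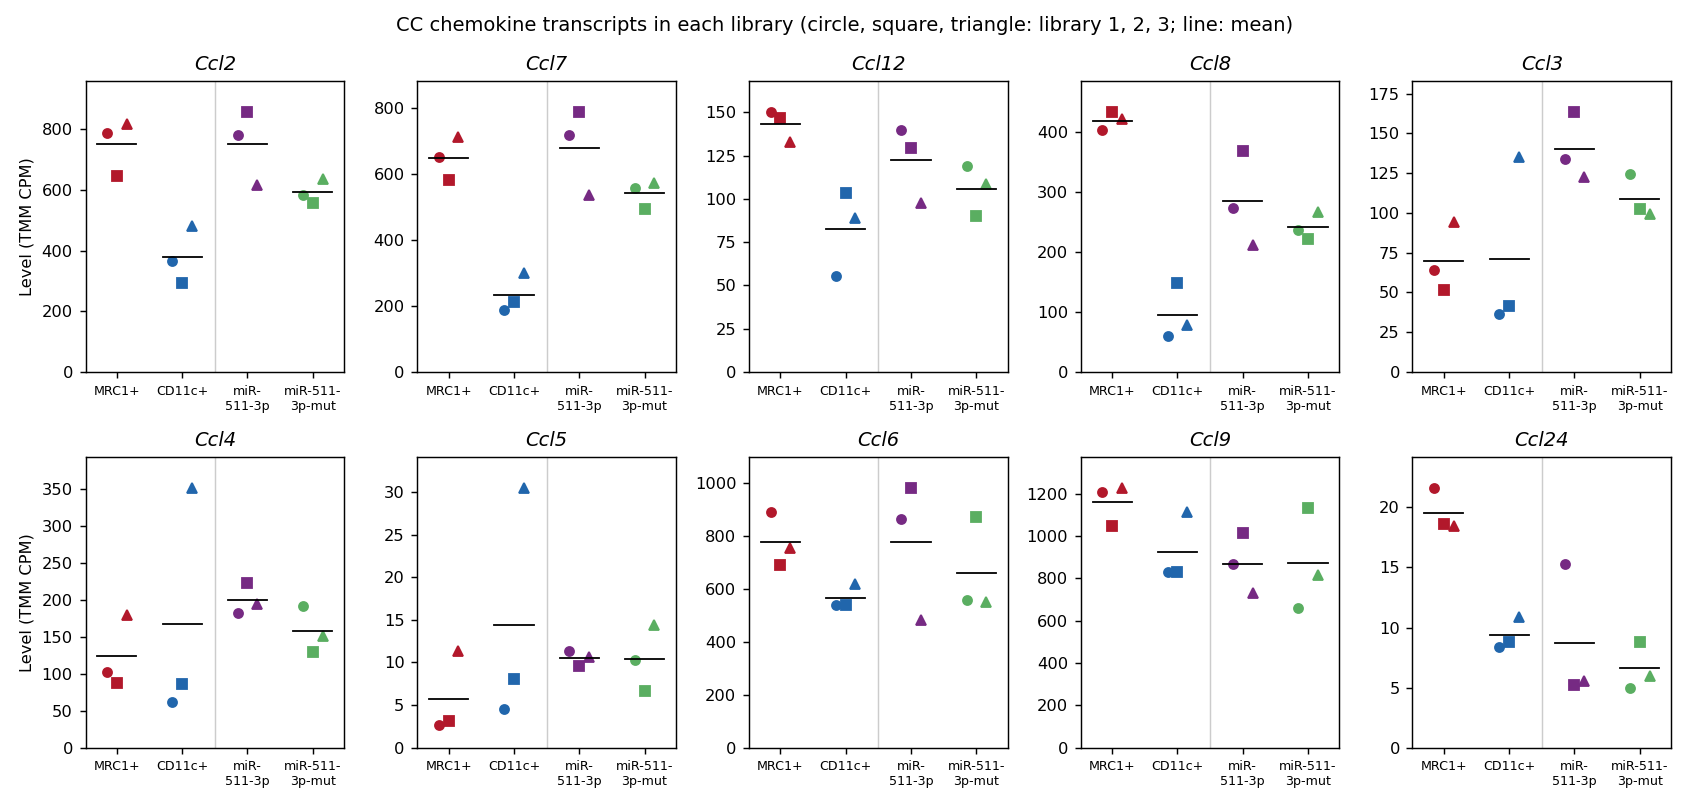
Level of each of the 10 CC chemokine genes (TMM CPM, vertical axes starting at 0) in MRC1+, CD11c+, miR-511-3p and miR-511-3p-mut TAMs. Each symbol is 1 library (circle, square and triangle for libraries 1, 2 and 3) and each line a group mean. Ccl2, Ccl7, Ccl8, Ccl12, Ccl6 and Ccl24 have all MRC1+ libraries above all CD11c+ libraries, and no gene parts the overexpression groups.

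Ccl8 differed most. It had 403, 433 and 421 CPM in MRC1+ TAMs against 59.9, 148 and 79.2 CPM in CD11c+ TAMs. The MRC1+ libraries lay close together and far above the CD11c+ libraries, of which the second was the highest. The log2 fold change was 2.14 ± 0.29 (SE, n = 3 each; adjusted p = 0.00235, edgeR).

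Ccl7 and Ccl2 encode CCR2 ligands and lie next to each other on the chromosome. Ccl7 had 653, 582 and 713 CPM in MRC1+ TAMs against 187, 211 and 299.6 CPM in CD11c+ TAMs, a log2 fold change of 1.49 ± 0.19 (SE; adjusted p = 0.00145, edgeR). Ccl2, the main monocyte attractant of the family, had 789, 647 and 817 CPM in MRC1+ TAMs against 365, 294 and 479.9 CPM in CD11c+ TAMs. Its log2 fold change was 0.99 ± 0.19 (SE; adjusted p = 0.00994, edgeR). For both genes the third CD11c+ library was the highest of its group and the lowest MRC1+ library was still above it. The fibroblast marker sum given above was higher in every MRC1+ library than in CD11c+ libraries 2 and 3, and lower than in CD11c+ library 1, and its part in the levels of Ccl2 and Ccl7 was not tested. A predicted gene, Gm17268, overlaps Ccl2 on the reference annotation, and the sources used here do not say whether counting used strand.

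Ccl12, a CCR2 ligand gene of mice, had 150.1, 147 and 133 CPM in MRC1+ TAMs against 55.5, 104 and 88.8 CPM in CD11c+ TAMs. The MRC1+ libraries were within a narrow range and the first CD11c+ library was the lowest. The log2 fold change was 0.80 ± 0.21 (SE; adjusted p = 0.0339, edgeR). This call was lost when any of the MRC1+ libraries 1, 2 and 3 or the third CD11c+ library was left out, at adjusted p = 0.0894, 0.0990, 0.0742 and 0.0543 in the same edgeR test.

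Ccl24 was low in every library but parted the groups cleanly. It had 21.6, 18.6 and 18.4 CPM in MRC1+ TAMs against 8.40, 8.80 and 10.9 CPM in CD11c+ TAMs, resting on 1079 and 425 reads over the 3 libraries. The log2 fold change was 1.08 ± 0.14 (SE; adjusted p = 0.00195, edgeR). Ccr3, the gene of its receptor and a marker of eosinophils, moved the same way. It had 8.54, 13.2 and 12.8 CPM in MRC1+ TAMs against 6.97, 4.34 and 7.66 CPM in CD11c+ TAMs. The 8 eosinophil and mast cell markers, of which Ccr3 is one, summed to 39.5 to 44.6 CPM in MRC1+ TAMs, against 43.3 to 84.2 CPM in CD11c+ TAMs. Of the 5 of these markers that were tested, Ccr3 alone had a log2 fold change above 0. Their part in the level of Ccl24 was not tested.

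Ccl6 and Ccl9 encode CCR1 ligands, and Ccl6 had the smallest difference of the 6 genes that passed. Ccl6 had 893, 690.3 and 756 CPM in MRC1+ TAMs against 539.9, 538 and 619 CPM in CD11c+ TAMs. The groups did not overlap, and the log2 fold change was 0.47 ± 0.13 (SE; adjusted p = 0.0403, edgeR). This call was lost when MRC1+ library 1, 2 or 3 or CD11c+ library 2 was left out (adjusted p = 0.0904, 0.0588, 0.107 and 0.129, edgeR) and when all 12 libraries shared 1 edgeR fit (adjusted p = 0.188). The non-coding gene E230016K23Rik overlaps Ccl6 on the reference annotation. Ccl9 had 1209, 1045 and 1227 CPM in MRC1+ TAMs against 831, 829.6 and 1113 CPM in CD11c+ TAMs. CD11c+ library 3 lay within the range of the MRC1+ libraries. The log2 fold change of 0.33 ± 0.15 (SE; 95% interval -0.01 to 0.67) did not pass, at adjusted p = 0.157 in edgeR's test. Without the third CD11c+ library Ccl9 passed, at 0.51 and adjusted p = 0.0288 in the same test.

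**Figure D3:**
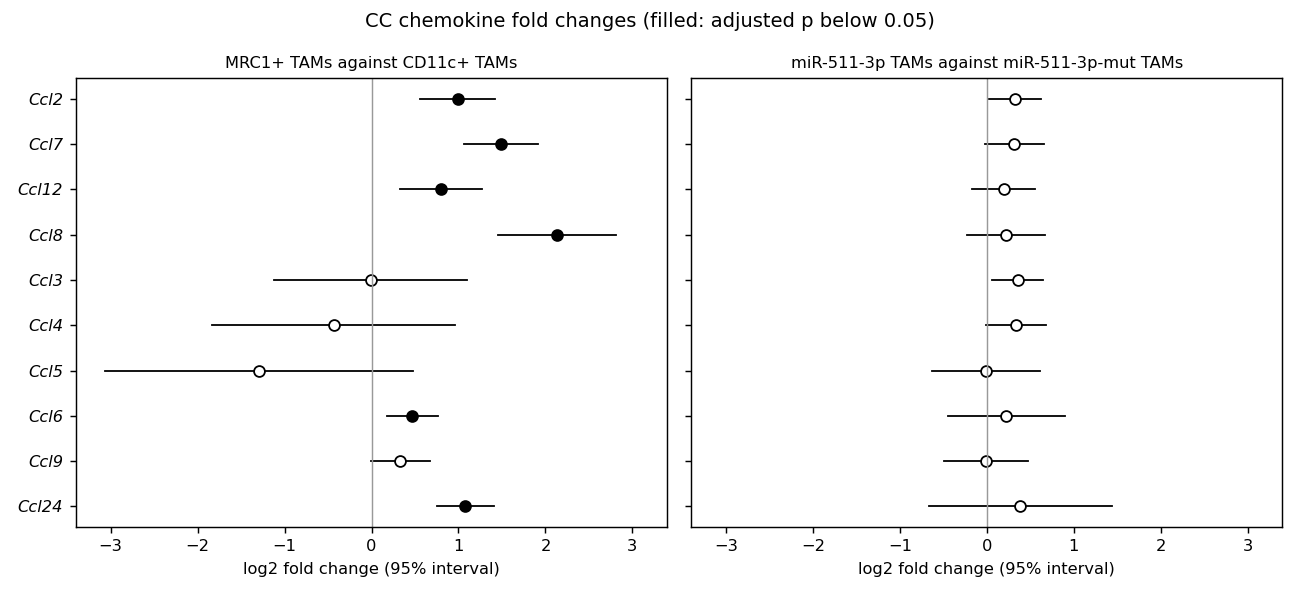
Log2 fold change (horizontal axis) of each CC chemokine gene with its 95% interval, for MRC1+ against CD11c+ TAMs on the left and miR-511-3p against miR-511-3p-mut TAMs on the right. Filled points passed an adjusted p of 0.05 in edgeR's quasi-likelihood test: 6 of 10 on the left, all above 0, and none on the right.

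Ccl3, Ccl4 and Ccl5, whose products attract monocytes and T cells, did not separate the sorted groups, and in each group the third library was the highest. Ccl3 had 64.0, 51.5 and 94.5 CPM in MRC1+ TAMs against 36.7, 41.4 and 135 CPM in CD11c+ TAMs. Ccl4 had 103, 87.7 and 180.4 CPM in MRC1+ TAMs against 62.4, 86.8 and 352 CPM in CD11c+ TAMs. Both had their highest value of the 6 libraries in the third CD11c+ library and their lowest in the first. The log2 fold changes were -0.01 for Ccl3 (95% interval -1.12 to 1.10; adjusted p = 0.990, edgeR) and -0.43 for Ccl4 (95% interval -1.83 to 0.96; adjusted p = 0.662, edgeR). Without the third CD11c+ library they were 0.87 for Ccl3 (adjusted p = 0.0604, edgeR) and 0.76 for Ccl4 (adjusted p = 0.168, edgeR), so the sign of both turned. Ccl3, near 0, also changed sign with upper-quartile scaling, at 0.0474.

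Ccl5, which T and NK cells also transcribe, was the least abundant of these 3 genes. It had 2.69, 3.10 and 11.3 CPM in MRC1+ TAMs against 4.53, 8.07 and 30.5 CPM in CD11c+ TAMs. Within each library number the CD11c+ library was higher, but the third MRC1+ library lay above the first and second CD11c+ libraries. The log2 fold change was -1.29 ± 0.77 (SE; 95% interval -3.07 to 0.48; adjusted p = 0.280, edgeR). With the library number as a block Ccl5 was lower in MRC1+ TAMs, with a log2 fold change of -1.23 (adjusted p = 0.00675, edgeR), and the count of chemokine genes that passed was 7. The 12 T and NK cell markers summed to 10.1, 14.7 and 10.9 CPM in MRC1+ TAMs and 19.1, 28.0 and 19.8 CPM in CD11c+ TAMs. Their sum was higher in every CD11c+ library than in every MRC1+ library, and highest in the second CD11c+ library. The part of these markers in the level of Ccl5 was not tested.

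Other transcripts were also high in library 3 of both groups. The 13 immediate-early and heat shock genes, which cells induce within minutes of a stimulus, summed to 3728, 3099 and 5439 CPM in MRC1+ TAMs, against 3795, 3715 and 6827 CPM in CD11c+ TAMs. Not every gene of the list was highest there. Jun had 169 CPM in CD11c+ library 1 against 150 CPM in CD11c+ library 3. Hspa1a and Hspa1b had 229 and 130 CPM in MRC1+ library 1 against 205 and 110 CPM in MRC1+ library 3. The other genes of the list were highest in library 3 of both groups. Ccrl2, which encodes a non-signalling receptor that is itself induced on activated macrophages, had 143, 117 and 255 CPM in MRC1+ TAMs against 257, 303 and 761 CPM in CD11c+ TAMs. The sum of the dendritic cell markers was also highest in the third CD11c+ library, at 579 CPM. The part of these genes in the levels of Ccl3, Ccl4 and Ccl5 was not tested. Ccl2, Ccl7 and Ccl9 were also highest in library 3 of both groups, by smaller ratios, and Ccl8, Ccl12, Ccl6 and Ccl24 were not.

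**Figure D4:**
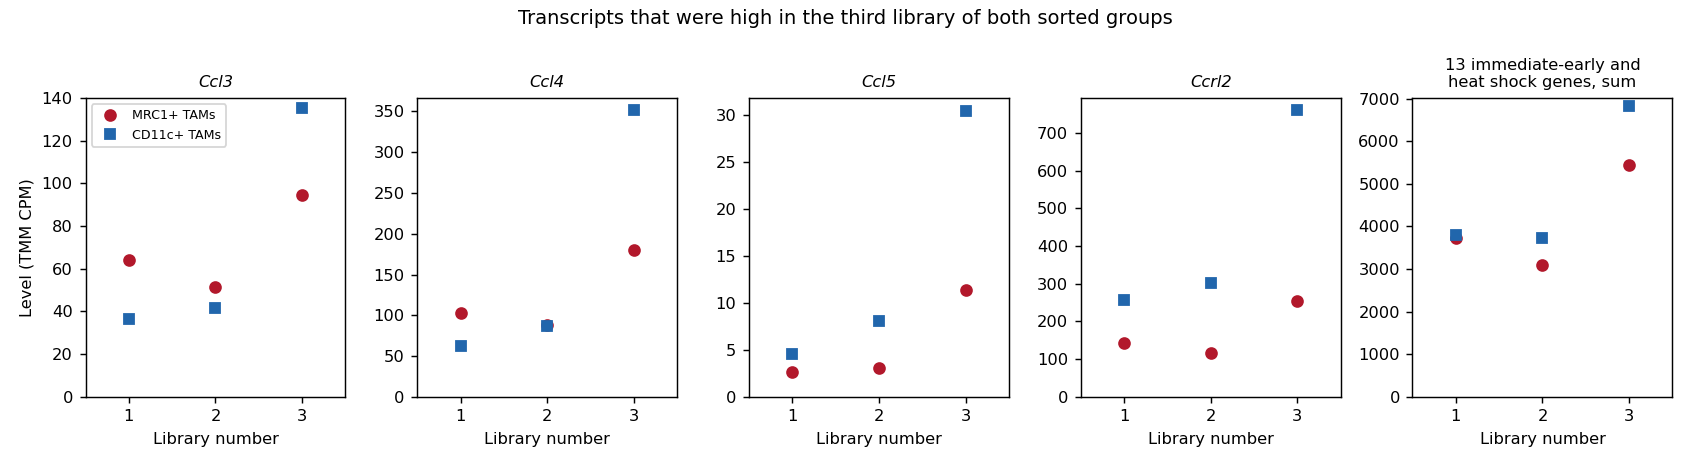
Levels (TMM CPM, vertical axes starting at 0) of Ccl3, Ccl4, Ccl5, Ccrl2 and the sum of 13 immediate-early and heat shock genes against library number in MRC1+ TAMs (red circles) and CD11c+ TAMs (blue squares). In all 5 panels library 3 is the highest of its group, in CD11c+ TAMs at 135, 352, 30.5, 761 and 6827 CPM.

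Among the CC chemokine receptor genes, Ccr1, Ccr2 and Ccr7 were lower and Ccr3 was higher in MRC1+ TAMs. Ccr2, the receptor for the products of Ccl2, Ccl7 and Ccl12, had 351, 209 and 269 CPM in MRC1+ TAMs against 1349, 1215 and 1457 CPM in CD11c+ TAMs. Its log2 fold change was -2.27 ± 0.19 (SE; adjusted p = 0.000255, edgeR), while those of the 3 ligand genes were between 0.80 and 1.49. Ccr2 is also a marker of recruited monocytes. The 9 monocyte markers summed to 2781 to 3254 CPM in MRC1+ TAMs, against 2593 to 3452 CPM in CD11c+ TAMs, and 8 of the 9 were lower and 1 was higher in MRC1+ TAMs.

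Ccr1, a receptor for the products of Ccl3, Ccl5, Ccl6 and Ccl9, was also lower in MRC1+ TAMs. Ccr1 had 400.1, 377 and 314 CPM in MRC1+ TAMs against 524, 607 and 594 CPM in CD11c+ TAMs (log2 fold change -0.66 ± 0.12 SE; adjusted p = 0.00894, edgeR). The groups did not overlap. Ccr3 passed narrowly, at 0.89 ± 0.25 (SE; adjusted p = 0.0454, edgeR), and lost the call when the 12 libraries shared a fit (adjusted p = 0.103, edgeR), with the library number as a block (0.0565) and without MRC1+ library 2 or 3 or CD11c+ library 2 (0.165, 0.152 and 0.114). Ccr8, the receptor for mouse CCL8, had 2 reads over the 3 MRC1+ libraries and 0 reads over the 3 CD11c+ libraries, so that gene was not measurable at this depth.

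Of 9 other CC chemokine ligand genes with an identifier, 4 were tested, and 2 of these were lower in MRC1+ TAMs, with a median log2 fold change of -2.22 over the 4. Ccl17 and Ccl22 encode the ligands of CCR4, a receptor of T cells, and are products of dendritic cells. Ccl22 had 2.29, 1.53 and 2.21 CPM in MRC1+ TAMs against 38.2, 38.3 and 90.4 CPM in CD11c+ TAMs, a log2 fold change of -4.78 ± 0.42 (SE; adjusted p = 0.000296, edgeR). Ccl17 had 0.917, 0.0985 and 0.283 CPM in MRC1+ TAMs, 23 reads in all, against 24.0, 13.1 and 25.8 CPM in CD11c+ TAMs (-5.61 ± 0.52 SE; adjusted p = 0.000345, edgeR). Both had the opposite sign to the 6 chemokine genes that were higher. The receptor gene Ccr7, which guides dendritic cells to lymph nodes, had 3.38, 2.22 and 3.23 CPM in MRC1+ TAMs against 64.1, 90.9 and 186 CPM in CD11c+ TAMs. These CD11c+ values stand beside the dendritic cell marker sums of 343, 369 and 579 CPM, a list that holds Ccr7 itself, and their part was not tested. Ccl11, an eotaxin gene, and Ccl25 did not pass, at log2 fold changes of 0.34 and 0.38.

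Ccrl2 was the 1 atypical or non-signalling receptor gene of 4 that was tested. Its log2 fold change was -1.36 ± 0.45 (SE; adjusted p = 0.0744, edgeR), and the groups did not overlap, with 255 CPM the highest value in MRC1+ TAMs and 257 CPM the lowest in CD11c+ TAMs. It passed with the library number as a block (-1.26; adjusted p = 0.00352, edgeR), with no filter on low counts (0.00418), when the 12 libraries shared a fit (0.0248) and when CD11c+ library 1 was left out (0.0178).

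**Figure D5:**
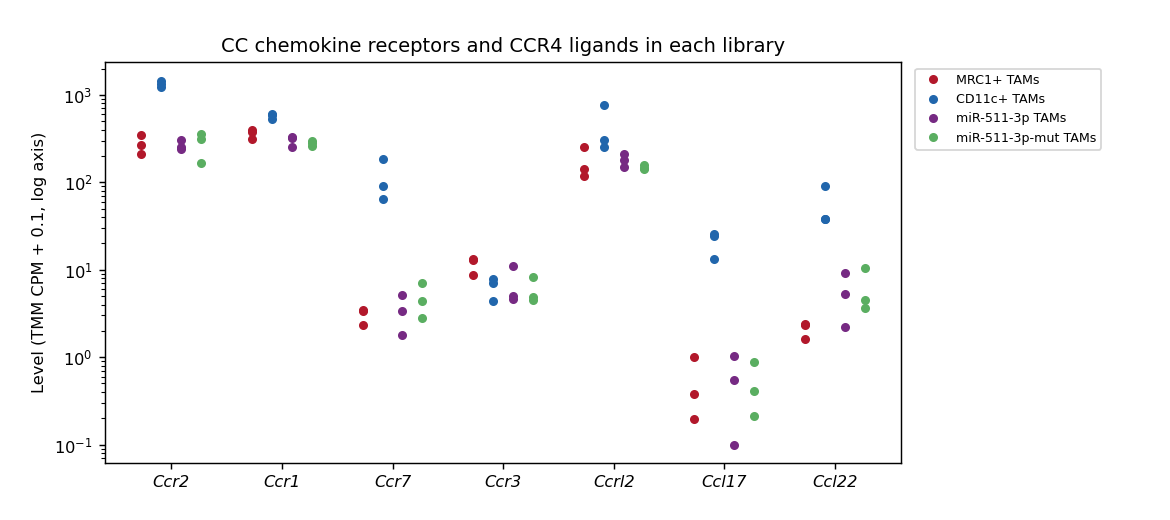
Levels (TMM CPM plus 0.1, log axis) of 5 receptor genes and of Ccl17 and Ccl22 in the 4 groups, each point being 1 library. Ccr2, Ccr1, Ccr7, Ccrl2, Ccl17 and Ccl22 have all MRC1+ libraries below all CD11c+ libraries, Ccr3 the reverse, and for each gene the miR-511-3p and miR-511-3p-mut points overlap.

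The comparison of miR-511-3p TAMs with miR-511-3p-mut TAMs asks whether the microRNA alters these transcripts. None of the 10 genes passed edgeR's test after adjustment, nor did any of 14054 genes (0%), while 343 had an unadjusted p under 0.05. DESeq2 called 1 gene of all tested and none of the 10. The libraries of the groups overlapped for all 10 chemokine genes. Over all genes tested 6.48% had no overlap, so none among 10 is near that share. Of the 10 log2 fold changes, 8 were above 0, with a median of 0.27 against 0.00 over all genes. The largest upper bound of a 95% interval among the 9 genes other than Ccl24 was 0.89, for Ccl6, and for Ccl24 it was 1.43.

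Ccl3 and Ccl2 had unadjusted p-values under 0.05 with higher values in miR-511-3p TAMs, which was the case for 0.583% of all genes tested. Ccl3 had 134, 163 and 123 CPM in miR-511-3p TAMs against 124, 103 and 99.1 CPM in miR-511-3p-mut TAMs. The miR-511-3p library was the higher one within each of the 3 library numbers, while over the groups the lowest miR-511-3p library fell just under the highest mutated one. Ccl3 had a log2 fold change of 0.35 ± 0.13 (SE; unadjusted p = 0.0250 and adjusted p = 0.9999, edgeR). Ccl2 had 779.7, 856 and 617 CPM in miR-511-3p TAMs against 585, 557 and 637 CPM in miR-511-3p-mut TAMs. In Ccl2 the third miR-511-3p library lay within the range of the mutated ones, and the log2 fold change was 0.33 ± 0.13 (SE; unadjusted p = 0.0351 and adjusted p = 0.9999, edgeR).

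Ccl7 and Ccl4 had differences of like size that did not reach an unadjusted p of 0.05. Ccl7 had 718, 787 and 535 CPM in miR-511-3p TAMs against 557, 493 and 574 CPM in miR-511-3p-mut TAMs (log2 fold change 0.32, 95% interval -0.02 to 0.66). Ccl4 had 183, 224 and 194 CPM in miR-511-3p TAMs against 192, 129.8 and 151 CPM in miR-511-3p-mut TAMs (0.33, -0.01 to 0.68). Ccl8 had 273, 369 and 212 CPM in miR-511-3p TAMs against 237, 221 and 267 CPM in miR-511-3p-mut TAMs (0.22, -0.23 to 0.67). The third miR-511-3p library was the lowest of its group for Ccl2, Ccl7, Ccl8, Ccl12, Ccl3, Ccl6 and Ccl9.

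Ccl12 had 139.9, 129.7 and 97.8 CPM in miR-511-3p TAMs against 119, 89.9 and 109 CPM in miR-511-3p-mut TAMs (0.20, 95% interval -0.17 to 0.56). Ccl6 had 866, 983 and 483 CPM in miR-511-3p TAMs against 560.0, 875 and 551 CPM in miR-511-3p-mut TAMs (0.22, -0.45 to 0.89), with the second library the highest of each group. Ccl24 had 15.3, 5.25 and 5.53 CPM in miR-511-3p TAMs against 4.97, 8.82 and 5.99 CPM in miR-511-3p-mut TAMs (0.38, -0.67 to 1.43). The first miR-511-3p library alone carried the difference of Ccl24, which stood at -0.30 without it. Ccl5 had 11.3, 9.56 and 10.7 CPM in miR-511-3p TAMs against 10.3, 6.59 and 14.4 CPM in miR-511-3p-mut TAMs, and its interval ran from -0.62 to 0.62 on the log2 scale. Its highest value was in the third mutated library, which also had the highest sum of T and NK cell markers, at 29.0 CPM against 3.01 to 9.41 CPM in the other 5, and their part was not tested.

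Ccl9, the gene with the seed match shown above, had 866, 1012 and 729 CPM in miR-511-3p TAMs against 662, 1131 and 817 CPM in miR-511-3p-mut TAMs. The groups overlapped throughout, and the log2 fold change was -0.01 ± 0.20 (SE; 95% interval -0.49 to 0.47; adjusted p = 0.9999, edgeR). An interval of this width leaves room for a change of either sign, so the values show neither an effect on Ccl9 transcripts nor its absence. For Ccl9, 4.18% of its 30-base stretches also occur in transcripts of other genes, which can cost reads that map to several places.

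Of the 9 other CC chemokine ligand genes 5 were tested in this comparison and none passed, with a median log2 fold change of -0.20, and Ccr1, Ccr2, Ccr3, Ccr7 and Ccrl2 did not pass either. Ccrl2 had 211, 178 and 151 CPM in miR-511-3p TAMs against 145, 142 and 158 CPM in miR-511-3p-mut TAMs (0.27, -0.02 to 0.56). The sum of the 13 immediate-early and heat shock genes was 5347, 7098 and 5452 CPM in miR-511-3p TAMs, against 4737, 5698 and 5504 CPM in miR-511-3p-mut TAMs, highest in the second miR-511-3p library, where Ccl3 and Ccl4 were also highest. The part of these genes was not tested.

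Across the 12 libraries each chemokine was given a gene of similar pattern, by the highest Pearson correlation of log2(CPM + 1). The choice was among 9537 genes with a mean of at least 10 CPM. All listed genes, which include the other chemokines, the receptors and the markers, were left out, so a listed gene may run closer. Libraries of a group share its condition, so these values describe the pattern only. Among the 9537 genes, Ccl8 ran most closely with Slc9a9 (r = 0.96), a gene for a sodium and proton exchanger of endosomes. Ccl7 did so with Car13 (0.95), a carbonic anhydrase gene. Ccl2 ran with Cbr2 (0.92), a carbonyl reductase gene, Ccl12 with Snx2 (0.92), a sorting nexin gene, and Ccl24 with Acy1 (0.97), an aminoacylase gene. Ccl3 ran with Marcksl1 (0.95), Ccl4 with Oasl1 (0.90), an interferon-induced gene, and Ccl5 with Slc20a1 (0.94), a phosphate transporter gene. Ccl6 ran with Ptgr1 (0.93), a prostaglandin reductase gene, and Ccl9 with the protocadherin gene Pcdh7 at 0.87, the lowest of the 10 values.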

How the data were processed

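RNA of 12 TAM libraries was sequenced from TruSeq RNA libraries, per the labels' protocols. The authors deposited whole-number read counts per Ensembl gene, not normalized. Bowtie, TopHat 1.2.0, SAMtools 0.1.12a, HTSeq and the mouse build mm9 (NCBIM37) are named in the submitters' processing notes. The sources used here give neither the counting mode nor the strand setting. Beside 36439 genes each table held 5 summary entries, left out of all fits. Reads outside genes made up 19.7% to 26.6% in sorted and 7.64% to 10.4% in overexpression libraries. Because sorted and overexpression libraries differ in this way, they were not compared by a test.

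Symbols for 31819 genes and exon lengths came from GENCODE M21 (GRCm38), so exon lengths come from another build than the counts. Each comparison used edgeR 4.0.16 in R 4.3.3 on its 6 libraries: TMM, filterByExpr, quasi-likelihood test and Benjamini-Hochberg adjustment at 0.05. SE was the size of the log2 fold change over the root of F, and 95% intervals used its t distribution. CPM use TMM factors over all 12 libraries, RPKM the same per kilobase of merged exons. The step was run on simulated counts with known changes beforehand. The alternatives were DESeq2 1.42.0, other scaling and filters, 1 fit of all libraries, a library-number block, each library left out, and longest transcripts. Promoters were aligned with Biopython 1.88 (match 1, mismatch -1, gap -3 and -0.5), and identities are given where at least 200 bases were paired.

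The chemokine genes, the lists and the rule for named genes were chosen with earlier results of these data known. Named were all 10 chemokine genes, listed ligands and receptors that passed, the unlisted gene most alike to each chemokine, Mrc1 and Itgax. Ccl11, Ccl25, Ccr8, Ccrl2, F13a1, Jun, Hspa1a and Hspa1b were named after their values were seen. So were Ccr1, Ccr2, Ccr3, Ccr7 and Ccrl2 under miR-511-3p. Counts over the receptor list are not reported here. No 2 libraries of a group agreed within sampling noise (chi-square per degree of freedom 9.18 to 33.0). Deviations from the group mean were correlated between the groups of each comparison. Same-numbered libraries had 0.104, 0.337 and 0.250 in the sorted and 0.147, 0.258 and 0.462 in the overexpression groups, all above 0.1. Libraries of different number had -0.235 to -0.027 in the sorted and -0.385 to 0.166 in the overexpression groups. The 0.166, between miR-511-3p library 1 and mutated library 2, was above the 0.147 of the libraries numbered 1. The labels state no pairing, and for library 1 of the overexpression groups these values do not settle it. The results are still from the fit without pairs, and the fit with the number as a block is given where it changes a call.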

Additional observations from a re-analysis of the deposited data

How the results depend on the processing

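In MRC1+ against CD11c+ TAMs, Ccl2, Ccl7, Ccl8 and Ccl24 passed with the same sign in all 12 alternatives, and 4 to 6 of the 10 chemokine genes passed when 1 library was left out. Over all genes 2597 passed, and 1270 to 4707 when 1 library was left out, the highest without the first CD11c+ library. The log2 fold change of Ccl3, near 0, was 0.0474 with upper-quartile scaling, 0.00752 with no filter, 0.0151 with a filter of 5 CPM in 3 libraries and -0.33 to 0.87 with 1 library left out; that of Ccl4 was -0.83 to 0.76. The count of atypical receptors that passed was 0, and 1 (Ccrl2) with no filter, with 12 libraries in 1 fit and with the block; with 1 library left out it was 0 to 1. Under miR-511-3p, 0 genes passed, but 1 with DESeq2, 1 with 12 libraries in 1 fit and 1 with the block, none of them a listed chemokine or receptor gene. There the sign turned for 4 of the 10 genes: Ccl5 was 0.00296 with no filter and -0.25 to 0.31 with 1 library left out, and under the latter Ccl9 was -0.18 to 0.22, Ccl24 -0.30 to 0.65 and Ccl8 -0.00369 to 0.39. The cause was not tested.

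With the replicate number as a block, which pairs the libraries, 7 of the 10 chemokine genes passed between the sorted groups, and Ccl3 stood at 0.20, with Ccl5 at 0.0542 and Ccl9 at 0.00988 under miR-511-3p. Among the named genes the block changed no other call than those of Ccl5, Ccr3 and Ccrl2. The order per length had 12 pairs of neighbours that did not overlap, with merged exons and with longest transcripts alike, though not the same pairs. Depth limits Ccr8 and Ccl17, and 3 libraries a group limit all intervals.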
